A study of Mus musculus with 4 samples.

Results

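A group of 10 neuron-enriched miRNAs with roles in neuronal maturation and at synapses was described in RNA recovered by immunoprecipitation of Argonaute2 (AGO2) from the mouse olfactory bulb. They were taken by name from the 1900 mature miRNA names of the count table and are mmu-miR-128-3p, mmu-miR-129-5p, mmu-miR-129-1-3p, mmu-miR-129-2-3p, mmu-miR-137-3p, mmu-miR-138-5p, mmu-miR-153-3p, mmu-miR-218-5p, mmu-miR-384-5p and mmu-miR-384-3p. The neuronal miRNAs miR-9, miR-124, miR-132 and miR-212 were not among them. Of the 10 names, 9 passed the filter on low counts, and miR-129-2-3p was listed at 0 in every library.

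All mice were C57BL/6, and tissue was taken 8 weeks after injection in both groups. The GFP-AGO2 group (n = 2 libraries, replicates 1 and 3) came from mice injected with LV.PGK.GFP-AGO2, a vector named for the PGK promoter, which is active in most cell types, and for AGO2 tagged with green fluorescent protein. The Control group (n = 2 libraries, replicates 1 and 3) came from sham-injected mice without a vector. The series is concerned with newborn neurons, but the labels give dissected bulb tissue, homogenised as a whole. The labels name neither the antibody nor the injection site, and what the Control libraries captured cannot be told from them. Whether each library stands for its own mouse is not stated, so the p-values measure the spread among 4 libraries that may be technical repeats.

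A mature miRNA guides Argonaute to messenger RNAs that pair with its seed, the bases from position 2 to 8, and lowers their translation and stability. Each hairpin precursor has a 5p and a 3p arm, of which usually 1 is kept as the guide and the other, the passenger, is mostly lost. Neuron-enriched miRNAs are set apart by their high level in neurons, where they tune dendrite growth, spine size, excitability and synaptic strength. The olfactory bulb receives newborn neurons throughout adult life, which mature and form synapses there.

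The mature sequences are shown because the seeds set which target sites these miRNAs can pair with. RefSeq (GRCm38.p6) gave a mature sequence for 9 of the 10 names. They are printed 5′ to 3′ with the seed in capitals.
mmu-miR-128-3p: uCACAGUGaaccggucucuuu
mmu-miR-218-5p: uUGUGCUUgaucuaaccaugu
mmu-miR-138-5p: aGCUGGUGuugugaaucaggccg
mmu-miR-384-5p: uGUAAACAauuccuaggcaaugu
mmu-miR-384-3p: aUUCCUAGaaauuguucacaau
mmu-miR-137-3p: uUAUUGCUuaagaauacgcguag
mmu-miR-129-5p: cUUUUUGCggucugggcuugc
mmu-miR-129-2-3p: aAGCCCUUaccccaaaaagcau
mmu-miR-153-3p: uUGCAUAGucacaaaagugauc

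No seed occurred in more than 1 of these 9 miRNAs, so they form no seed family among themselves. Outside the group, the RefSeq table gave the seed of miR-384-5p also to miR-30a-5p, miR-30c-5p and miR-30e-5p, and miR-30b-5p and miR-30d-5p are known as members of the same seed family. The table gave the seed of miR-218-5p also to miR-7002-3p, which had no count in any library.

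The 4 libraries held 1858354 to 2809758 miRNA counts in GFP-AGO2 and 673916 to 1006861 in Control. The neuronal markers miR-124-3p and miR-9-5p together took 0.752% to 0.897% of the counts in GFP-AGO2 and 0.624% to 0.726% in Control. The 2 did not behave alike. MiR-9-5p was called higher, with a log2 fold change of 1.14. MiR-124-3p, at -0.15, was not called, and its libraries overlapped between the groups, so no direction was read from it. The summed shares of epithelial, vessel, immune, red blood cell and muscle markers were lower in both GFP-AGO2 libraries than in both Control libraries. The 8 names of the epithelial and olfactory sensory list all fell by the edgeR test and took 2.56% to 4.998% of the counts in GFP-AGO2, against 22.98% to 23.44% in Control. The 4 vessel names took 0.0282% to 0.145% in GFP-AGO2 and 0.302% to 0.424% in Control. The 5 immune names took 0.00655% to 0.0206% in GFP-AGO2 and 0.0444% to 0.0551% in Control. The 2 red blood cell names took 3.56e-05% to 0.000484% in GFP-AGO2 and 0.00268% to 0.00341% in Control. The 3 muscle names took 0.00338% to 0.00705% in GFP-AGO2 and 0.0113% to 0.0170% in Control. Few names of these 4 lists passed the filter. The edgeR test called lower 0 of 1 vessel, 1 of 2 immune, 1 of 1 red blood cell and 1 of 2 muscle names tested. The red blood cell names lay near the floor in GFP-AGO2. MiR-126a-3p, miR-126a-5p, miR-142-3p and the 3 oligodendrocyte names were listed at 0 throughout. The counting left out reads that overlap more than 1 name, and whether other names overlap these was not checked. The 0 counts were therefore not read as absence of these cells. The vessel and immune sums rest on the remaining names of their lists. The epithelial names and their partner arms were also left out of the table, an alternative added after the data had been seen. All 9 tested members then kept their calls. This fit moved the median of all miRNAs by 0.01 on the log2 scale. Reads of the members from such cells, if any, stayed in it. The part of the marker differences, the epithelial ones included, in the results was not tested. In immunoprecipitates from such bulk material, fewer cells of a type, less RNA per cell and a different capture cannot be told apart.

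The members of the neuron-enriched group differed between GFP-AGO2 and Control in both directions. Both arms of miR-384 rose, by 2.89-fold for the 5p and 1.84-fold for the 3p arm, and miR-138-5p fell to 0.565 of its Control level. The other 6 tested members did not pass the test. Among them miR-218-5p, the most abundant member in Control, stood at 0.740 of its Control level, and miR-128-3p at 1.13 times its level there. Changes were tested by edgeR's quasi-likelihood F test over 457 miRNAs, with Benjamini-Hochberg adjustment over all of them and a call at an adjusted p under 0.05.

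By this rule 2 of the 9 tested members were called higher, while 17.3% of all tested miRNAs were. One member was called lower, against 17.1% of all tested miRNAs. Both GFP-AGO2 libraries lay above both Control libraries for 4 members (36.8% of all tested miRNAs) and below them for 3 (35.2%). These shares are near the background, and nothing particular to the group follows from the counts. The median log2 fold change of the 9 members was 0.18, and that of all tested miRNAs was -0.01.

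**Figure D1:**
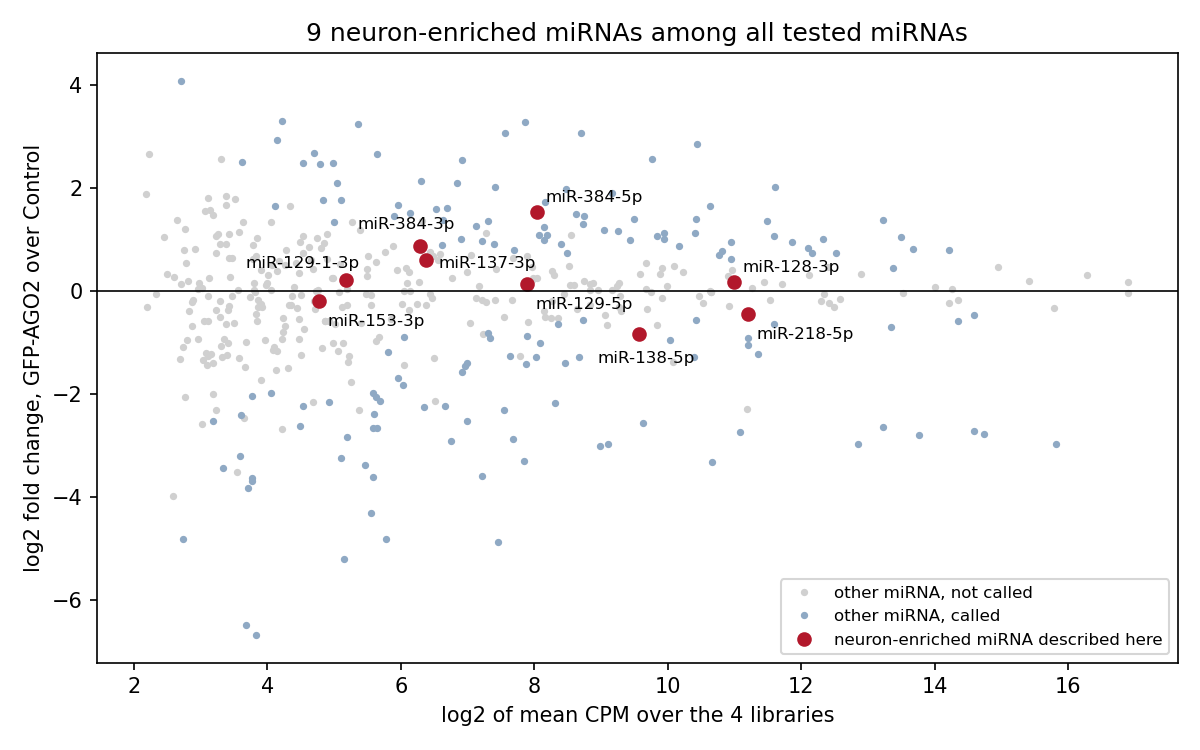
Log2 fold change, GFP-AGO2 over Control, against the log2 of the mean CPM over the 4 libraries, for the 457 tested miRNAs. The 9 neuron-enriched miRNAs (large points) lie between -0.82 (miR-138-5p) and 1.53 (miR-384-5p), within the spread of the other miRNAs.

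In sum the 10 names held 0.644% (95% exact Clopper-Pearson interval 0.635 to 0.654) and 0.564% (0.553 to 0.574) of the miRNA counts in GFP-AGO2 replicates 1 and 3. They held 0.579% (0.564 to 0.594) and 0.558% (0.541 to 0.576) in Control replicates 1 and 3. The intervals cover counting error only. The means were 0.604% ± 0.0571 in GFP-AGO2 and 0.569% ± 0.0147 in Control (SD, n = 2 each), and the groups overlapped. The difference of 0.0352 percentage points became -0.0196 without miR-128-3p and -0.00519 without GFP-AGO2 replicate 1. It also turned when the total was taken without miR-200 and miR-183 counts. The share was then 0.662% and 0.594% in GFP-AGO2, against 0.761% and 0.729% in Control.

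Levels are given as CPM, counts scaled to the TMM-normalised library size. A read here spans a whole mature miRNA, so levels were not divided by length. Levels were not corrected for differences in ligation between sequences. In GFP-AGO2 the order was miR-128-3p, miR-218-5p, miR-138-5p, miR-384-5p, miR-129-5p, miR-384-3p, miR-137-3p, miR-129-1-3p and miR-153-3p. The neighbours miR-128-3p and miR-218-5p, and miR-384-3p and miR-137-3p, did not differ beyond their spread. In Control miR-218-5p stood above miR-128-3p, miR-129-5p above miR-384-5p and miR-137-3p above miR-384-3p. There the libraries of miR-137-3p overlapped those of both neighbours, miR-384-5p and miR-384-3p. MiR-128-3p made up 39.3% and 37.4% of the group's counts in GFP-AGO2 replicates 1 and 3, against 33.4% and 28.9% in Control replicates 1 and 3. MiR-218-5p made up 35.6% and 35.8% in GFP-AGO2, against 43.2% and 45.0% in Control.

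**Figure D2:**
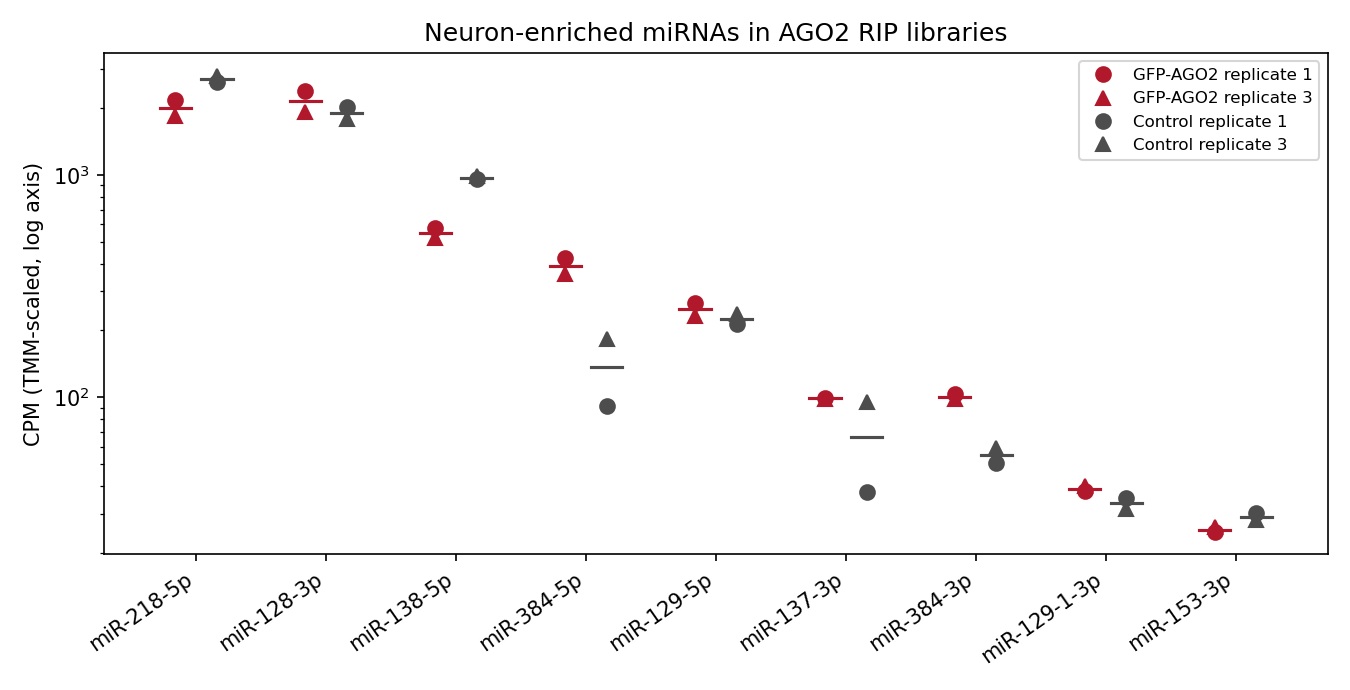
CPM on a log axis of the 9 tested neuron-enriched miRNAs in each library, GFP-AGO2 left of Control, with a line at each group mean (n = 2). MiR-384-5p and miR-384-3p are higher and miR-138-5p lower in both GFP-AGO2 libraries, and the Control libraries of miR-384-5p and miR-137-3p lie far apart.

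The largest difference was that of miR-384-5p, which in the rodent hippocampus has been tied to the upkeep of long-term potentiation. Its hairpin lies on the X chromosome, with the 5p arm at 105344332 to 105344354 and the 3p arm at 105344292 to 105344313 (mm10, minus strand), outside any gene of the GENCODE annotation other than its own. MiR-384-5p had 1255 and 731 counts in GFP-AGO2 replicates 1 and 3 and 88 and 111 counts in Control replicates 1 and 3. This gave 422 and 359 CPM in GFP-AGO2, against 91.5 and 183 CPM in Control, with means of 391 ± 45.0 CPM in GFP-AGO2 and 137.4 ± 64.9 CPM in Control (SD, n = 2 each). Both GFP-AGO2 libraries were high, and Control replicate 1 lay well below Control replicate 3. The log2 fold change was 1.53 (SE 0.35, edgeR adjusted p = 0.0227). It passed the test under all 12 alternatives run. The lowest value, 1.15, came with Control replicate 1 left out, and the highest, 2.06, with Control replicate 3 left out.

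The 3p arm of the same hairpin rose as well. MiR-384-3p had 104 and 98.1 CPM in GFP-AGO2 replicates 1 and 3, against 50.9 and 59.4 CPM in Control replicates 1 and 3. The means were 101 ± 3.90 CPM in GFP-AGO2 and 55.2 ± 6.01 CPM in Control (SD, n = 2 each), and the groups did not overlap. Its log2 fold change was 0.88 (SE 0.23, edgeR adjusted p = 0.0379). The rise was not called by DESeq2 (0.88, adjusted p = 0.091) or once replicate numbers entered the fit as a block (0.88, adjusted p = 0.0751). It was likewise lost without Control replicate 1 (0.82, adjusted p = 0.116), Control replicate 3 (0.95, adjusted p = 0.0774) or GFP-AGO2 replicate 1 (0.84, adjusted p = 0.093).

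Since miR-384-5p carries the seed of the miR-30 family, the abundant miR-30 members can pair with the same seed sites. The sequences of miR-30a-5p, miR-30c-5p and miR-30e-5p differ from that of miR-384-5p after the seed.
mmu-miR-384-5p: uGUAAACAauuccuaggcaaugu
mmu-miR-30a-5p: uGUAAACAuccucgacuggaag
mmu-miR-30c-5p: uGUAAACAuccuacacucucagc
mmu-miR-30e-5p: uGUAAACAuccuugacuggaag

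MiR-30a-5p had 8175 and 8837 CPM in GFP-AGO2 replicates 1 and 3, against 6796 and 6661 CPM in Control. MiR-30c-5p had 5057 and 4757 CPM in GFP-AGO2, against 2342 and 2754 CPM in Control, and miR-30e-5p 6902 and 6852 CPM in GFP-AGO2, against 3333 and 3462 CPM in Control. MiR-30d-5p, the most abundant of the family, had 24591 and 23972 CPM in GFP-AGO2, against 13758 and 14159 CPM in Control. MiR-30b-5p had 2245 and 2291 CPM in GFP-AGO2, against 1325 and 1304 CPM in Control. MiR-384-5p was thus below each of the 5 in every library. MiR-30c-5p and miR-30e-5p rose, by 0.95 (SE 0.15, edgeR adjusted p = 0.0078) and 1.02 (SE 0.12, edgeR adjusted p = 0.00527) on the log2 scale, and so did miR-30d-5p and miR-30b-5p, by 0.80 (SE 0.11, edgeR adjusted p = 0.00687) and 0.79 (SE 0.13, edgeR adjusted p = 0.00863). MiR-30a-5p, with a log2 fold change of 0.34, did not pass the test (SE 0.12, edgeR adjusted p = 0.0887). The difference between the change of miR-384-5p and theirs was not tested.

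**Figure D3:**
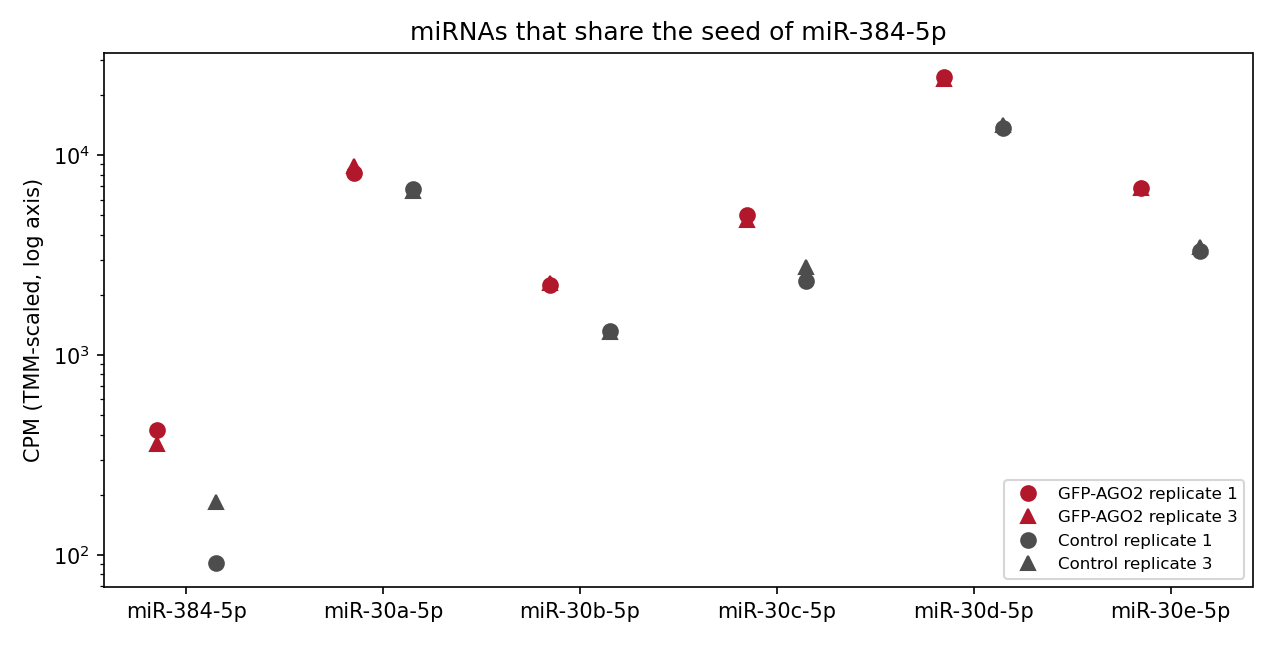
CPM on a log axis of miR-384-5p and of the 5 miR-30 5p arms of its seed family, in each library, GFP-AGO2 left of Control. All 6 miRNAs lie higher in both GFP-AGO2 libraries than in both Control libraries, and miR-384-5p is the lowest of them in each library.

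MiR-138-5p, which limits the size of dendritic spines in rat hippocampal neurons, was the member that fell. It is made from 2 hairpins, on chromosome 8 (94324312 to 94324334, plus strand, in an exon of the long noncoding RNA C78859) and chromosome 9 (122682898 to 122682920, plus strand, in an exon of the pseudogene Gm47135), and its counts cannot be split between them. It had 579 and 523 CPM in GFP-AGO2 replicates 1 and 3, against 960.5 and 989 CPM in Control replicates 1 and 3. The means were 551 ± 39.2 CPM in GFP-AGO2 and 975 ± 20.05 CPM in Control (SD, n = 2 each), and the groups did not overlap. The log2 fold change was -0.82 (SE 0.14, edgeR adjusted p = 0.0101). The call was lost without Control replicate 1 (-0.79, adjusted p = 0.0731) and without Control replicate 3 (-0.84, adjusted p = 0.0579). It held in the other 9 alternatives that could be run for it, at -0.58 to -0.91.

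MiR-218-5p, best known as a miRNA of motor neurons, comes from introns of Slit3 on chromosome 11 (35616840 to 35616860) and Slit2 on chromosome 5 (48223966 to 48223986), both on the plus strand. It had 2168 and 1838 CPM in GFP-AGO2 replicates 1 and 3, against 2617 and 2797 CPM in Control replicates 1 and 3. Both GFP-AGO2 libraries lay below both Control libraries. The log2 fold change of -0.43 (SE 0.15) did not pass the edgeR test (adjusted p = 0.0764). It was called lower with the filter at 50 counts (-0.52, adjusted p = 0.0447) and without GFP-AGO2 replicate 1 (-0.56, adjusted p = 0.00978). It was negative under all 11 alternatives run for it. The filter at 50 counts also moved the median of all miRNAs tested with it, by -0.09 on the log2 scale.

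MiR-128-3p, a brain-enriched miRNA that restrains neuronal excitability in mice, comes from introns of R3hdm1 on chromosome 1 (128202404 to 128202424, plus strand) and Arpp21 on chromosome 9 (112118644 to 112118664, minus strand). It had 2392 and 1924 CPM in GFP-AGO2 replicates 1 and 3, against 2024 and 1793 CPM in Control replicates 1 and 3. The groups overlapped, and the log2 fold change was 0.18 (SE 0.17, edgeR adjusted p = 0.46). By mean CPM it stood 53rd among all names in both groups.

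The members at lower levels were not called either. MiR-137-3p, which acts on the maturation of newborn neurons in mice, had 99.3 and 98.6 CPM in GFP-AGO2 replicates 1 and 3, against 37.4 and 95.7 CPM in Control replicates 1 and 3. The GFP-AGO2 libraries were alike and Control replicate 1 stood far below the other 3 libraries. Its log2 fold change was 0.60 (SE 0.45, edgeR adjusted p = 0.351). It was 1.36 and called without Control replicate 3 (adjusted p = 0.0395), and 0.10 without Control replicate 1. MiR-137-3p lies on chromosome 3 at 118433901 to 118433923 (plus strand), in an exon of the noncoding Gm26871.

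MiR-153-3p, known for targets in the machinery of synaptic vesicle release, lies in an intron of Ptprn2 on chromosome 12 (117250860 to 117250881, plus strand). It had 24.9 and 26.0 CPM in GFP-AGO2 replicates 1 and 3, against 30.1 and 28.1 CPM in Control replicates 1 and 3. Although the groups did not overlap, the log2 fold change was -0.20 (SE 0.34, edgeR adjusted p = 0.691), on 17 to 74 counts a library. Its sign was not stable, with 0.04 with no filter and 0.02 with total counts alone.

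The miR-129 family takes part in homeostatic lowering of synaptic strength in rat neurons. MiR-129-5p had 265 and 232 CPM in GFP-AGO2 replicates 1 and 3, against 214 and 236 CPM in Control replicates 1 and 3. The groups overlapped (log2 fold change 0.15, SE 0.17, edgeR adjusted p = 0.55). MiR-129-1-3p had 38.0 and 39.7 CPM in GFP-AGO2, against 35.3 and 31.4 CPM in Control, with a log2 fold change of 0.22 (SE 0.31, edgeR adjusted p = 0.62).

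The counting of this family is limited by an antisense hairpin. The family has hairpins on chromosome 6 (miR-129-5p at 29022624 to 29022644 and miR-129-1-3p at 29022667 to 29022688, plus strand, in an exon of Gm3294) and on chromosome 2 (miR-129-5p at 94241419 to 94241439 and miR-129-2-3p at 94241376 to 94241397, minus strand, in an intron of Mir670hg). On the opposite strand of the chromosome 2 hairpin the table lists miR-129b, whose 5p arm shares 20 positions with miR-129-2-3p and whose 3p arm shares 20 with miR-129-5p. The header shows that featureCounts was run without a strand setting and without counting reads that overlap more than 1 name. The antisense pair is shown because the 2 names lie on the same bases.
mmu-miR-129-2-3p: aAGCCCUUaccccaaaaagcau
mmu-miR-129b-5p: gCUUUUUGggguaagggcuucc

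The capitals again mark bases 2 to 8. The 0 counts of miR-129-2-3p were therefore not read as absence, and no limit was derived from them. For miR-129-5p only the chromosome 6 position is free of an overlapping name, and the share of its reads placed at chromosome 2 is not known. Reads that span its chromosome 2 position overlap miR-129b-3p as well and were left out. The counts of miR-129-5p may thus be too low by an unknown amount, and the summed share and the order of levels carry this limit.

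**Figure D4:**
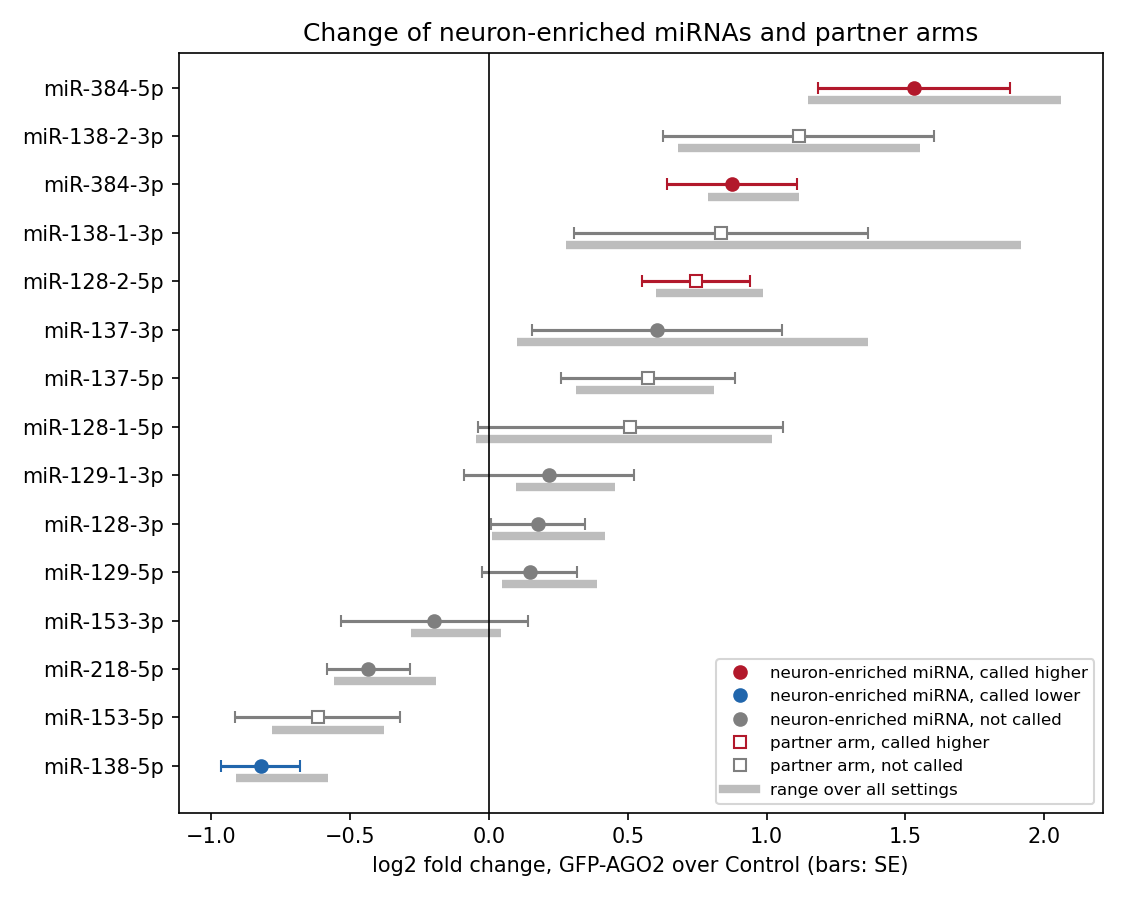
Log2 fold change, GFP-AGO2 over Control, with its SE, for the 9 neuron-enriched miRNAs (filled circles) and the 6 tested partner arms of their hairpins (open squares). Grey bars give the range over all settings run. MiR-384-5p, miR-384-3p and miR-128-2-5p were called higher and miR-138-5p lower.

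The partner arms of these hairpins were not part of the group and are given as the other products of the same precursors. The level of a precursor was not read from them. Of 8 listed, 6 were tested, with a median log2 fold change of 0.66. Of these, 1 rose (against 17.3% of all tested miRNAs) and none fell (against 17.1%). On so few arms these counts show nothing particular to them. By unadjusted edgeR p under 0.05 and by DESeq2 the counts were likewise 1 and 0. The riser was miR-128-2-5p, with 407 and 492 CPM in GFP-AGO2 replicates 1 and 3, against 240.1 and 297 CPM in Control replicates 1 and 3. Its log2 fold change was 0.75 (SE 0.20, edgeR adjusted p = 0.0355), and the call was lost without Control replicate 1 (0.65, adjusted p = 0.116), Control replicate 3 (0.86, adjusted p = 0.0581) or GFP-AGO2 replicate 3 (0.60, adjusted p = 0.0793). Of the other partner arms, miR-138-2-3p and miR-138-1-3p had log2 fold changes of 1.12 (SE 0.49) and 0.84 (SE 0.53). MiR-137-5p had 0.57 (SE 0.31), miR-128-1-5p 0.51 (SE 0.55) and miR-153-5p -0.62 (SE 0.30). The edgeR adjusted p-values of these arms were 0.138 to 0.522. Both miR-138 3p arms lay above Control in both GFP-AGO2 libraries, though not called, while miR-138-5p fell. MiR-138-2-3p was called with no filter (1.36) and without GFP-AGO2 replicate 3 (1.45). MiR-218-1-3p and miR-218-2-3p, at 0 to 17 counts a library, were not tested.

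The ratio of the 2 arms within a library does not depend on how libraries are scaled. For miR-138 the 5p arm outnumbered its 3p arms together by 6.69 and 7.84 to 1 in GFP-AGO2 replicates 1 and 3, against 22.5 and 28.5 to 1 in Control replicates 1 and 3. The mean log2 ratio was 2.85 ± 0.16 in GFP-AGO2 and 4.64 ± 0.23 in Control (SD, n = 2 each), a difference of -1.79. The Control ratios rest on 41 and 21 counts of the 3p arms. The 5p arm is the same from both hairpins, and the 3p arms differ between them, as their sequences show.
mmu-miR-138-5p: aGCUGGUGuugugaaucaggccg
mmu-miR-138-1-3p: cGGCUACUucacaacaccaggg
mmu-miR-138-2-3p: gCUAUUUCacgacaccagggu

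For miR-128 the 3p arm outnumbered the 5p arms by 5.66 and 3.68 to 1 in GFP-AGO2 replicates 1 and 3, against 7.79 and 5.81 to 1 in Control replicates 1 and 3. MiR-384-5p outnumbered miR-384-3p by 4.07 and 3.66 to 1 in GFP-AGO2, against 1.80 and 3.08 to 1 in Control. In the miR-153 hairpin the 3p arm was the rarer one, at 0.712 and 0.815 of the 5p arm in GFP-AGO2, against 0.537 and 0.607 in Control. The miR-153 ratio rests on 29 and 17 counts of the 3p arm in Control replicates 1 and 3. The ratios of miR-128, miR-384, miR-153 and miR-138 did not overlap between the groups. The share of all hairpins with such a gap was not computed, so nothing particular to these hairpins follows. Among single tested miRNAs, 36.8% lay above and 35.2% below Control in both GFP-AGO2 libraries. The ratios of miR-129-5p to miR-129-1-3p (6.97 and 5.84 in GFP-AGO2, 6.06 and 7.53 in Control), of miR-137-3p to miR-137-5p and of miR-218-5p to its 3p arms did overlap. The miR-129 ratio sets a 5p arm listed at 2 hairpins over the 3p arm of the chromosome 6 hairpin alone, since miR-129-2-3p was at 0. It carries the limits of counting given above for this family.

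With 2 libraries a group the exact two-sided permutation test cannot go below p = 0.333, which the ratios of miR-138, miR-128, miR-384 and miR-153 reached. The exact permutation test gave p = 0.667 for miR-129 and miR-218 and p = 1 for miR-137, and over the 7 ratios the lowest adjusted value was 0.583. The ratios of miR-129 and miR-384 were planned, and the other 5 were added after the counts had been seen. Without Control replicate 1 the miR-384 difference in log2 ratio was 0.34, and without Control replicate 3 it was 1.11, against 0.72 with all libraries.

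**Figure D5:**
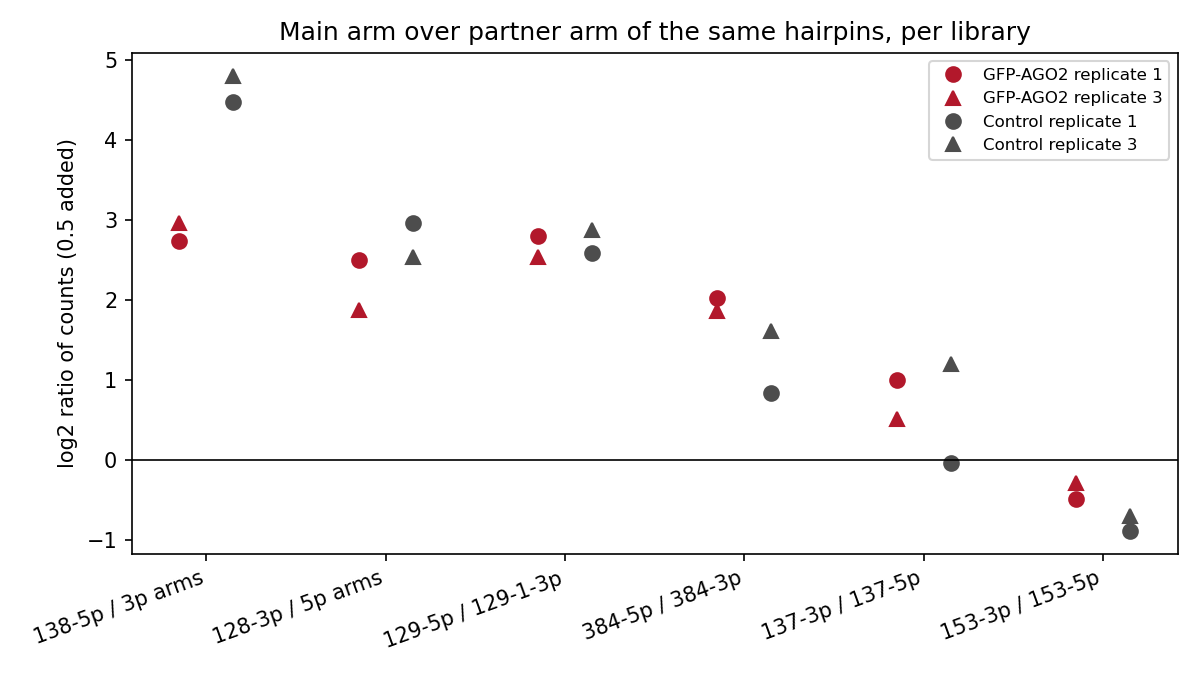
Log2 ratio of the counts of the main arm over its partner arm or arms, with 0.5 added to both, in each library for 6 hairpin families, GFP-AGO2 left of Control. MiR-138 shows the widest gap, with 2.74 and 2.97 in GFP-AGO2 and 4.48 and 4.80 in Control. For miR-153 the arm set on top, the 3p arm, is the rarer of the hairpin. For miR-129 the partner arm is that of the chromosome 6 hairpin alone.

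Where 2 hairpins give the same main arm, the partner arms show which hairpin left reads. Of the miR-128 5p reads, 96.3% and 94.2% came from the chromosome 9 hairpin in Arpp21 in GFP-AGO2 replicates 1 and 3 (exact Clopper-Pearson intervals 95.1 to 97.3 and 92.6 to 95.5). In Control replicates 1 and 3 the shares were 92.4% (88.4 to 95.4) and 96.3% (92.4 to 98.5). The libraries of the groups overlapped, and the Arpp21 hairpin gave nearly all 5p reads in each. For miR-138 the chromosome 9 hairpin gave 41.2% and 55.1% of the 3p reads in GFP-AGO2, against 68.3% and 28.6% in Control, where the intervals ran from 51.9 to 81.9 and from 11.3 to 52.2. Neither hairpin led in all libraries.

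The other neuron-enriched miRNAs were read from a list of 15 names (miR-9, miR-124, miR-132, miR-212, miR-7a, miR-7b, miR-134, miR-135a, miR-326, miR-485 and miR-488 arms). All 15 were tested, with a median log2 fold change of -0.13. Of these, 3 rose (against 17.3% of all tested miRNAs) and none fell (against 17.1%). On so few names these counts show nothing particular to the list. By unadjusted edgeR p under 0.05, 3 were higher and 1 lower, as by DESeq2. MiR-9-5p rose by 1.14 (SE 0.21), miR-9-3p by 1.07 (SE 0.26) and miR-488-3p by 0.91 (SE 0.26) on the log2 scale, with edgeR adjusted p = 0.0115, 0.0281 and 0.0473. None of the 3 rises was called when Control replicate 1 was left out, and with Control replicate 3 out miR-9-3p alone was. That of miR-488-3p was also lost with the filter at 50 counts (0.83, edgeR adjusted p = 0.0563) and with GFP-AGO2 replicate 1 left out (0.66, edgeR adjusted p = 0.134). Without GFP-AGO2 replicate 1 the list had 2 called higher and 3 called lower. The 3 most abundant were not called. MiR-7a-5p averaged 17522 ± 1820 CPM in GFP-AGO2 and 20606 ± 3410 CPM in Control, a log2 fold change of -0.23. MiR-124-3p averaged 5793 ± 730 CPM in GFP-AGO2 and 6449 ± 1175 CPM in Control, at -0.15, and miR-7b-5p 4714 ± 1093 CPM in GFP-AGO2 and 5392 ± 1034 CPM in Control, at -0.19 (SD, n = 2 each).

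The profiles most like those of the 2 most abundant members were sought by the distance between log2 CPM values centred on their mean over the 4 libraries, as a description. Nearest to miR-218-5p were let-7a-5p, miR-23b-3p and miR-181a-5p, at distances of 0.145 to 0.173 against a median of 1.24 over all tested miRNAs. Nearest to miR-128-3p were miR-30a-3p, miR-25-3p and miR-382-5p, at 0.025 to 0.171 against a median of 1.12.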

How the data were processed

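The authors' deposited table holds whole-number read counts per mature miRNA name for 4 libraries, produced by featureCounts (v1.4.6-p1, primary alignments kept) with a miRBase mm10 annotation, per the file headers. The submitters' processing notes name cutadapt and STAR without versions. Columns were tied to samples by title. Counts were tested in R 4.3.3 with edgeR 4.0.16 (quasi-likelihood F test, TMM scaling, filterByExpr at a minimum count of 10, group as the only term), which left 457 of 1900 names, holding 99.88% to 99.93% of each library's counts. P-values were adjusted by Benjamini-Hochberg over these 457. The SE is the log2 fold change over the root of F. The fit was tested on simulated data. Alternatives were DESeq2 1.42.0, other scalings and filters, a replicate block, names of 1 position, and each library left out. Leaving the miR-200 and miR-183 names out was added later. Host genes come from GENCODE M21. All members and partner arms are named, with the seed mates and, of the list of 15, those called and the 3 most abundant; members and lists were chosen with earlier results of these data known. Replicates differed well beyond counting noise (chi-square 47711 on 475 degrees of freedom in GFP-AGO2 and 4564 on 383 in Control).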

Additional observations from a re-analysis of the deposited data

How the results depend on the processing

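Of the 2 members called higher, 1 was called by DESeq2 and 1 with the replicate block, and 1 to 2 when a library was left out; miR-384-5p was called each time. Of members called lower, there were 2 with the filter at 50 counts, 0 without names of several positions, where miR-138-5p is not in the table, and 0 to 2 when a library was left out. Over all miRNAs, leaving out a library gave 47 to 94 called higher and 43 to 106 called lower, against 79 and 78. Fits without a GFP-AGO2 library take their spread from Control alone, and those without a Control library from GFP-AGO2 alone, and assume that the lone library varies alike. The difference in the summed share, 0.0352 percentage points, became -0.117 over a total without miR-200 and miR-183. MiR-153-3p turned to 0.0425 with no filter and 0.0153 with total counts alone, and miR-128-1-5p ranged from -0.0458 (without GFP-AGO2 replicate 3) to 1.02 (without Control replicate 1), none called. Total counts alone moved the median of all miRNAs by 0.21, no filter by 0.24 and the filter at 50 counts by -0.09 on the log2 scale. The labels do not say that equal replicate numbers mark a pair, so the numbers were not taken as pairs. Same-numbered libraries did not deviate together (r = -0.0606 across miRNAs). With 2 libraries a group, this correlation cannot show whether they are paired. The replicate block left the calls of miR-384-5p, miR-138-5p and miR-128-2-5p in place and gave 79 higher and 85 lower over all miRNAs. MiR-137-3p, miR-384-3p, miR-129-1-3p and miR-153-3p had at most 58 counts in a Control library, which limits their precision.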

Other observations

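The antisense arm miR-129b-3p, at 94241420 to 94241442 on chromosome 2, was counted 1 and 1 times in GFP-AGO2 replicates 1 and 3 and 17 and 5 times in Control replicates 1 and 3, and miR-129b-5p 1 and 0 times and 0 and 0 times. They were singled out after the counts had been seen.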
